A study of Arabidopsis thaliana with 9 samples.

Results

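The RelA/SpoT homologues of Arabidopsis thaliana were followed in shoots through iron deficiency and iron resupply. The family was taken as 4 loci, RSH1 (AT4G02260), RSH2 (AT3G14050), RSH3 (AT1G54130) and CRSH (AT3G17470), and every transcript listed under them was kept. This gave 9 transcripts of the 55442 in each table, and 4 genes of 34262. RSH1 has 4 transcripts, CRSH has 3, and RSH2 and RSH3 have 1 each. The family was selected on measured values, because RSH2 was already known to differ between conditions in these same data, so the iron response of RSH2 is given as a description that supports nothing further.

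All plants were wild type (WT, ecotype Col-0), and only shoots were sampled, with 3 biological replicates in each of 3 conditions and 9 samples in all. Every plant spent its first 14 days on iron-containing half-strength MS medium and was moved on the same schedule. For +Fe, both later media, for 3 days and then for 24 h, contained iron. For -Fe, both lacked it. For Fe resupply, iron was absent for the 3 days and returned for the last 24 h.

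RSH enzymes make and break down guanosine tetraphosphate and pentaphosphate, together written ppGpp, the alarmone first known from the stringent response of starved bacteria. Plants keep the system mainly in the plastid: the enzymes are encoded in the nucleus, and ppGpp acts on plastid transcription, translation and nucleotide metabolism. RSH2 and RSH3 are close relatives that carry both synthetase and hydrolase domains and supply much of the ppGpp of leaves in the light. CRSH is a synthetase that is switched on by calcium through EF-hand motifs. RSH1 of Arabidopsis acts as a hydrolase.

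The stretches directly upstream of RSH2 and RSH3 are printed because RSH2 differed between iron conditions in the tables while no difference passed for its closest relative. Each line gives the 250 bases before the annotated start of the gene, read from the TAIR10.1 genome in the direction of transcription, 5′ to 3′. Capitals mark the longest run of letters that the windows have in common. The RSH2 window lies at chr3:4654047-4654296 on the minus strand, and the RSH3 window at chr1:20210522-20210771 on the plus strand.
RSH2: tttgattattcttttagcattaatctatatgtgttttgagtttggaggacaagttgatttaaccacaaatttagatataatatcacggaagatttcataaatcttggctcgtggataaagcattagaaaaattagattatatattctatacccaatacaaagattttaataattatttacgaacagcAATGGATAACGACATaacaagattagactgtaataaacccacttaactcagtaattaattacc
RSH3: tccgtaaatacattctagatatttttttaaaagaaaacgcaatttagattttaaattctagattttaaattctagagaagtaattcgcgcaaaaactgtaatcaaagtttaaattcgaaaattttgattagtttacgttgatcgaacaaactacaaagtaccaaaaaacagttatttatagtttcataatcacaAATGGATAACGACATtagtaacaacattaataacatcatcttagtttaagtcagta
The shared run is 15 bases long and begins 63 bases before the start of RSH2 and 56 bases before that of RSH3. Only these 2 windows hold it among the 33054 of equal length before Arabidopsis genes, both strands searched. The other 5 pairs of family windows share runs of 7 to 9 bases. The run was picked as the longest in common, so no test is attached to it. GC content is 27.2% for RSH2 and 24.8% for RSH3. Searched on both strands were 3 motifs: the G-box CACGTG, which 5.86% of all windows hold, the W-box core TTGAC with 44.2%, and the ABRE core ACGTG with 21.8%, the G-box containing the ABRE core. None of these letters occurs in the RSH2 or RSH3 window. The RSH1 window has 3 copies of TTGAC, and the CRSH window, which overlaps the neighbouring gene AT3G17465, has 1 copy of ACGTG. These matches describe letters and do not show that a factor binds.

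In the tables a difference is a log2 fold change, with the condition named first divided by the other, and a level is a mean in CPM, the count relative to the size of its library, recovered for each condition from the deposited average and fold change. Adjusted p-values are those of the authors' edgeR quasi-likelihood test with Benjamini-Hochberg adjustment over all transcripts of a table, and a transcript passed with an adjusted p under 0.05 and a log2 fold change of 1 or more in either direction. Values for single samples were not used here, so levels carry no standard deviation, and each 95% interval is approximate, worked back from the F statistic. The average effective library size implied by the tables was 1.12e+06 to 1.14e+06 counts. The tables also imply 12 libraries in each fit where the labels give 6 samples. Transcripts with a single count took 12 distinct levels per table, which exact copies of libraries would not give. If the libraries nevertheless came in pairs from the same samples, the stated errors are too small. Counting them as identical pairs, as done below, divided F by 2 and used fewer degrees of freedom. No new fit was made, so this need not be the extreme case. By the most abundant transcript of each gene, the leaf genes RBCS1A and LHCB1.3 reached 6775 and 15687 CPM in -Fe. The 4 root genes examined stayed at or under 2.74 CPM on the same measure, with MYB36 at 0 in every condition. FRO2 and IRT1, root genes of iron uptake, stood at 2.74 and 2.14 CPM in -Fe against 0 and 0.674 CPM in +Fe, each by 1 of its 2 transcripts. The study lists FRO2 among genes raised by iron deficiency in shoots as well as roots, so it does not mark root tissue in -Fe. The part of FRO2 and IRT1 in the results was not tested.

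RSH2, one of the main ppGpp synthetases of the leaf, was the family member that stood out with iron. Its single transcript AT3G14050.1 averaged 149 CPM in -Fe and 32.1 CPM in +Fe, a 4.62-fold difference. Its average in that table was above that of 94.5% of the transcripts over the lowest level, so the values rest on a well-covered transcript. In the table of -Fe against Fe resupply it averaged 146 CPM in -Fe and 38.1 CPM after resupply, 3.82-fold apart. The -Fe mean was the high one, while the resupply and +Fe means lay close together. The log2 fold change was 2.21 in -Fe vs +Fe (SE 0.190, 95% interval 1.80 to 2.61) and 1.93 in -Fe vs Fe resupply (SE 0.135, 95% interval 1.64 to 2.22). The adjusted p in the authors' edgeR tables was 8.89e-05 in the former and 1.51e-05 in the latter. By unadjusted p the transcript stood in places 9 and 2 of 55442. With the libraries of each fit counted as identical pairs the adjusted p became 0.205 and 0.108, and neither call held.

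The plants resupplied for 24 h had an RSH2 level near that of +Fe. In the table that compares them directly, the level was 38.1 CPM in Fe resupply and 31.4 CPM in +Fe. The log2 fold change was 0.28 (SE 0.203, 95% interval -0.16 to 0.71, adjusted p = 1 by the authors' edgeR test), so an excess over +Fe was not detectable beyond the error, and the interval allows up to 0.71. In CPM, -Fe stood 117 above +Fe and Fe resupply 6.65 above +Fe, a difference smaller by 94.3%. That percentage joins levels of separately normalised tables and has no interval. It compares different plants: none were sampled at the end of the 3 days without iron, and the -Fe plants had a further 24 h without it, so the level from which resupply began is not known. Each pair of tables shares the libraries of 1 condition, so the high values against +Fe and against Fe resupply rest on the same -Fe plants.

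**Figure D1:**
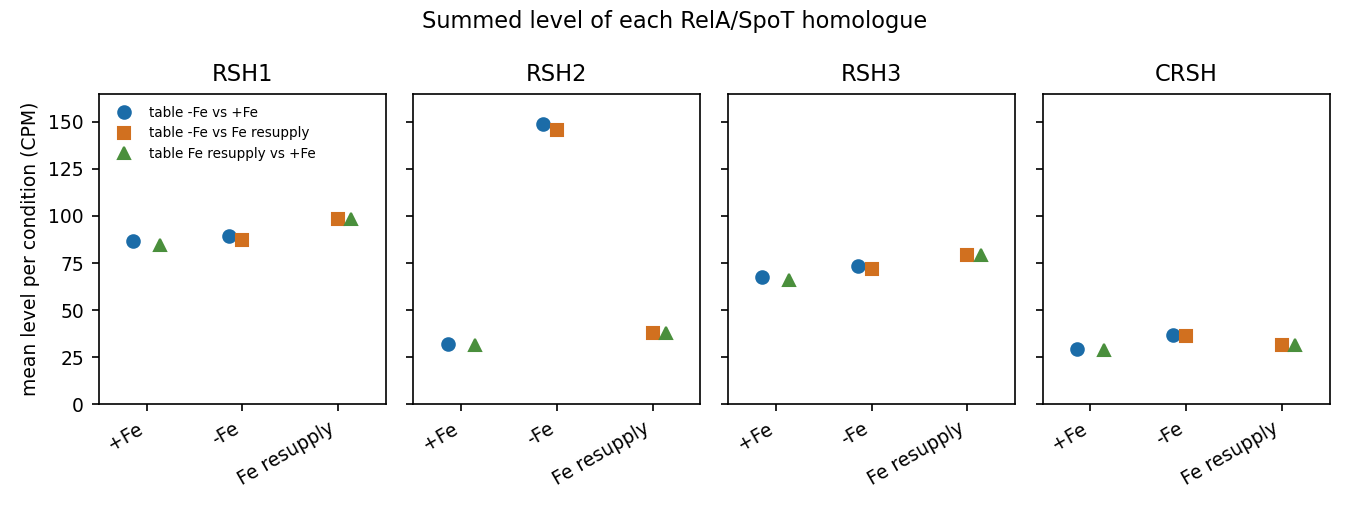
Mean level in CPM (vertical axis, from 0) of each RelA/SpoT homologue, summed over its transcripts, in +Fe, -Fe and Fe resupply (horizontal axis). Each point is 1 condition in 1 table, circles for -Fe vs +Fe, squares for -Fe vs Fe resupply and triangles for Fe resupply vs +Fe, without error bars because levels per sample were not used. RSH2 stands at 149 and 146 CPM in -Fe and at 31.4 to 38.1 CPM elsewhere, and the other genes stay within narrow bands.

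RSH3, the relative of RSH2 with the same domains, showed no such difference. AT1G54130.1 averaged 73.3 CPM in -Fe and 67.7 CPM in +Fe. After resupply it averaged 79.2 CPM against 66.2 CPM in +Fe. The highest mean was thus in resupply and the lowest in sufficiency, with deficiency between them. Its log2 fold change was 0.11 in -Fe vs +Fe (95% interval -0.13 to 0.36) and -0.14 in -Fe vs Fe resupply (95% interval -0.44 to 0.16), with an adjusted p of 1 for each by edgeR. In Fe resupply vs +Fe it was 0.26 (95% interval -0.04 to 0.55, adjusted p = 0.813 by edgeR). Whether RSH3 and RSH2 differed in their response was not tested, and RSH2 led to the choice of the family, so their values are only set side by side.

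RSH2 and RSH3 can be told apart by their sequence. RSH2 lies at chr3:4650714-4654046 on the minus strand and RSH3 at chr1:20210772-20213942 on the plus strand. Each has 6 exons, with transcripts of 2850 and 2734 bases that encode 709 and 715 residues. The longest run common to the transcripts is 28 bases, and 0 of the 2801 windows of 50 bases in RSH2 recur in RSH3. The other pairs of family transcripts share runs of 11 to 17 bases. RSH3 overlaps AT1G54140 on the opposite strand by 44 bases at its 3′ end, and reads there cannot be assigned without strand, while the other 3 genes overlap no annotated gene.

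CRSH, the calcium-dependent synthetase, did not pass the threshold through any transcript. Its 3 transcripts together reached 37.1 CPM in -Fe and 29.6 CPM in +Fe, a log2 ratio of 0.32. Against Fe resupply the sums were 36.4 CPM in -Fe and 31.5 CPM after resupply, a log2 ratio of 0.21, and Fe resupply against +Fe gave 31.4 and 29.0 CPM, a log2 ratio of 0.12. The sums are ordered -Fe, Fe resupply, +Fe in every table that holds the conditions, but they carry no error of their own. The single transcripts do: AT3G17470.1 averaged 15.0 CPM in -Fe and 8.95 CPM in +Fe, with a log2 fold change of 0.73 and a 95% interval of -2.77 to 4.24. AT3G17470.2 had 7.62 and 8.71 CPM and a log2 fold change of -0.19 (95% interval -2.76 to 2.38). AT3G17470.3 had 14.5 and 11.9 CPM and 0.28 on the log2 scale (95% interval -2.19 to 2.74). All 3 intervals span changes of several-fold in both directions, so at this precision CRSH could have differed as much as RSH2 did without being seen transcript by transcript.

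Around resupply the CRSH transcripts were as loosely determined. AT3G17470.1 averaged 14.7 CPM in -Fe and 16.5 CPM after resupply (log2 fold change -0.17, 95% interval -3.50 to 3.16). AT3G17470.2 had its lowest mean after resupply, 3.48 CPM against 7.49 CPM in -Fe (log2 fold change 1.08, 95% interval -2.10 to 4.26). AT3G17470.3 averaged 14.2 and 11.5 CPM in -Fe and Fe resupply (log2 fold change 0.31, 95% interval -2.67 to 3.28). None of the 3 passed here or in Fe resupply vs +Fe, where their log2 fold changes ran from -1.26 to 0.90 with an adjusted p of 1 for each by edgeR.

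The CRSH transcripts overlap almost completely, which bears on how reads were divided among them. The gene lies at chr3:5979814-5982145 on the plus strand. AT3G17470.1 and AT3G17470.2 have 4 exons each and encode 583 and 598 residues, while AT3G17470.3 keeps an intron, has 3 exons and encodes 445 residues. Of their bases, 0, 11 and 71 respectively occur in no other CRSH transcript. AT3G17470.3, the transcript with the shortest protein, took 39.1% of the CRSH sum in -Fe, 40.3% in +Fe and 36.4% in Fe resupply. AT3G17470.2 took 20.6%, 29.4% and 11.1% in the same order. These shares come from the authors' division of shared reads and are uncertain.

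RSH1, the hydrolase, had nearly the same summed level in -Fe and +Fe. Its 4 transcripts together had 89.1 CPM in -Fe and 86.5 CPM in +Fe, a log2 ratio of 0.04. The sum was 98.5 CPM in Fe resupply against 87.4 CPM in -Fe and 84.6 CPM in +Fe, log2 ratios of -0.17 for -Fe over resupply and 0.22 for resupply over +Fe. As for RSH3, resupply gave the highest mean and +Fe the lowest.

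Beneath that sum the RSH1 transcripts had uneven levels. AT4G02260.3 averaged 58.2 CPM in -Fe and 37.7 CPM in +Fe (log2 fold change 0.63, 95% interval -1.64 to 2.89). AT4G02260.2 averaged 7.53 CPM in -Fe and 32.2 CPM in +Fe (log2 fold change -2.08, 95% interval -4.69 to 0.53, adjusted p = 0.756 by edgeR). As shares of the RSH1 sum, AT4G02260.2 held 8.45% in -Fe, 37.2% in +Fe and 18.4% in Fe resupply, and AT4G02260.3 held 65.3%, 43.5% and 72.5%. The AT4G02260.2 difference was about as large as that of RSH2 on the log2 scale, but it did not pass. AT4G02260.1 averaged 21.2 and 16.7 CPM in -Fe and +Fe, a log2 fold change of 0.34 (95% interval -3.44 to 4.12). AT4G02260.4 is listed at 0 in +Fe and averaged 2.23 CPM in -Fe, with 1.01 CPM after resupply. Its unadjusted p was 0.0339 in -Fe vs +Fe by edgeR's quasi-likelihood test (adjusted p = 0.723), and no fold is given against a level of 0.

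No RSH1 transcript was detectably different between Fe resupply and +Fe. AT4G02260.3 averaged 71.4 CPM in Fe resupply and 36.9 CPM in +Fe (log2 fold change 0.95, 95% interval -1.58 to 3.48), with a resupply mean above both others. AT4G02260.2 had 18.1 and 31.4 CPM (log2 fold change -0.79, 95% interval -3.93 to 2.35), between -Fe and +Fe. AT4G02260.1 had its lowest mean after resupply, 8.04 CPM against 16.4 CPM in +Fe (log2 fold change -1.02, 95% interval -4.56 to 2.53). All of these intervals include 0, and none of the 4 transcripts passed in any comparison.

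RSH1 spans chr4:985123-991506 on the plus strand, and its transcripts differ by little sequence. AT4G02260.1, AT4G02260.2 and AT4G02260.4 have 24 exons and encode 884, 883 and 868 residues. AT4G02260.3 keeps an intron near its 3′ end, has 23 exons and encodes 816 residues. AT4G02260.1 has 3 bases found in no other RSH1 transcript, AT4G02260.2 has 16, AT4G02260.3 has 86 and AT4G02260.4 has 0. AT4G02260.1 and AT4G02260.4 each have 1 intron found in no other RSH1 transcript, so reads across that junction would identify them. Where AT4G02260.3 keeps its intron, AT4G02260.2 has a junction that it shares with AT4G02260.1, and reads across that junction exclude AT4G02260.3. An apparent exchange between AT4G02260.2 and AT4G02260.3 thus rests on that junction and on the bases that only 1 of them has. Its share due to read assignment was not tested.

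**Figure D2:**
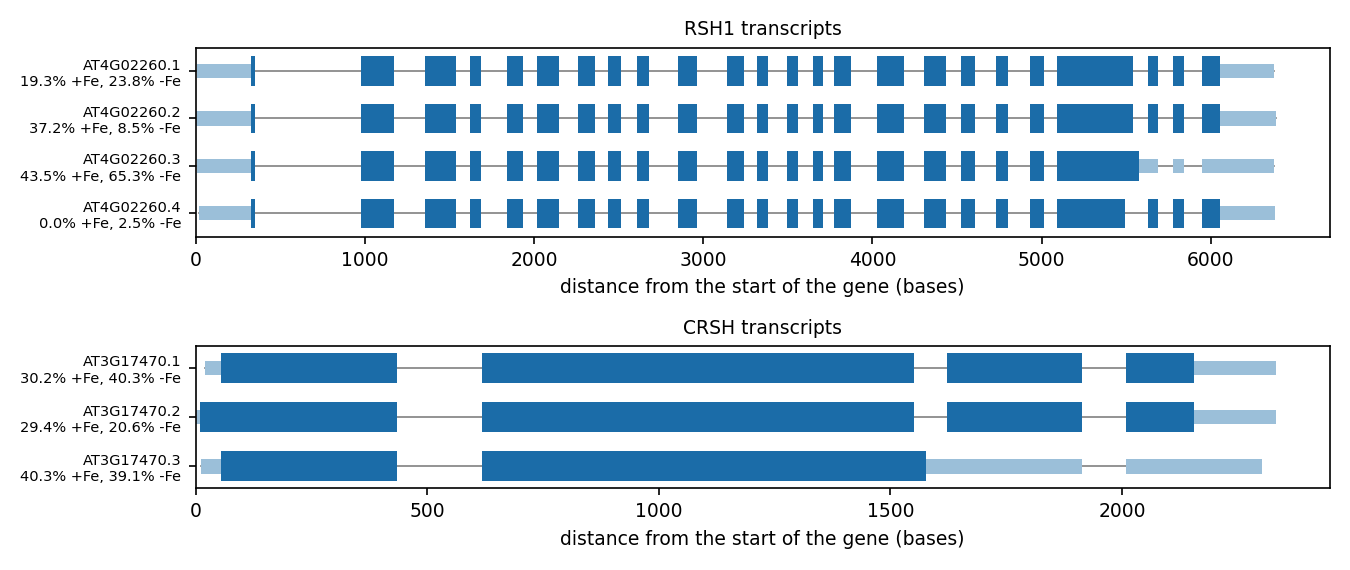
Exon models of the RSH1 and CRSH transcripts in TAIR10.1, with distance from the start of the gene in bases on the horizontal axis (tall boxes, coding sequence, and low boxes, the rest of each exon), and beside each name its share of the gene's summed level in +Fe and in -Fe. AT4G02260.3 and AT3G17470.3 each retain an intron, AT3G17470.1 and AT3G17470.2 differ only at the 5′ end, and AT4G02260.2 has 37.2% of RSH1 in +Fe against 8.45% in -Fe.

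Counted over the family, 1 of 9 transcripts passed in -Fe vs +Fe, where 0.132% of all transcripts did, and 1 of 9 in -Fe vs Fe resupply, where 0.135% did. The transcript was RSH2 both times, and since RSH2 led to the choice of the family, nothing is read from these counts. In Fe resupply vs +Fe 0 of 9 passed against 0.00902% of all transcripts by edgeR. There 0 of 9 had an unadjusted p under 0.05 by edgeR, against 5.32% of all transcripts. At these shares a count of 0 is not a result about the family. In the comparisons with -Fe, 2 of 9 and 1 of 9 had an unadjusted p under 0.05, as did 6.32% and 6.61% of all transcripts. The shares over all transcripts take in 23054, 23322 and 23123 at the lowest level in the 3 comparisons, which could not pass. Every family transcript stood above that level, so these shares are low as a yardstick for the family. By gene, 1 of 4 passed in each comparison with -Fe and 0 of 4 in the third, where 0.213%, 0.216% and 0.0146% of all genes did. The median log2 fold change of the 9 transcripts was 0.34 in -Fe vs +Fe, 0.31 in -Fe vs Fe resupply and 0.26 in Fe resupply vs +Fe. Over the most abundant transcript of every gene above the lowest level it was -0.01, 0.01 and -0.01 in that order. The family median takes in RSH2 and minor transcripts, so these measures are unlike and no rise of the family is read from them.

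**Figure D3:**
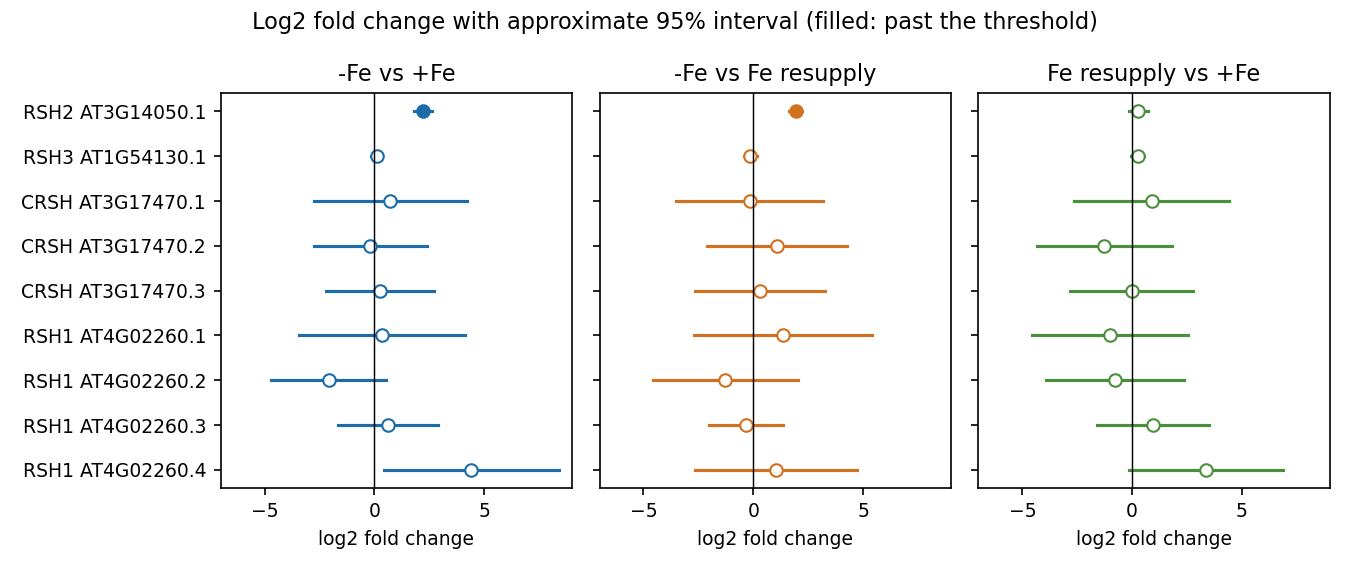
Log2 fold change (horizontal axis) of the 9 family transcripts in the 3 comparisons, with bars for the approximate 95% interval and filled points for those past the threshold. RSH2 is filled at 2.21 and 1.93 in the comparisons with -Fe, RSH3 has narrow intervals around 0, and the RSH1 and CRSH transcripts have wide ones. The fold of AT4G02260.4 against +Fe, where it is listed at 0, is set by a prior count.

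The difference in RSH2 altered the make-up of the family as a whole. All 4 genes together had 348 CPM in -Fe and 216 CPM in +Fe, a log2 ratio of 0.69. RSH2 was 42.7% of this sum in -Fe, 14.9% in +Fe and 15.4% in Fe resupply. Per kilobase of transcript, which allows genes to be set side by side, RSH2 had 52.2 CPM in -Fe, above RSH3 at 26.8, RSH1 at 26.6 and CRSH at 18.7 CPM per kilobase. In +Fe the order was RSH1 at 25.9, RSH3 at 24.8, CRSH at 14.9 and RSH2 at 11.3 CPM per kilobase. Per kilobase RSH2 was thus the lowest of the 4 in +Fe and the highest in -Fe. Without that scaling it stood above CRSH in +Fe, at 32.1 CPM against 29.6 CPM. RSH1 and RSH3 were close to each other per kilobase in both conditions, and none of these orders was tested. In shoots as a whole, fewer cells that express a gene and less RNA per cell cannot be told apart.

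Genes around ppGpp were read from 7 lists with 71 genes, of which 70 were above the lowest level of the tables. In -Fe vs +Fe 2 of the 71 passed, both lower in -Fe; in -Fe vs Fe resupply 1 passed, also lower; in Fe resupply vs +Fe 0 passed by edgeR. Over all genes 0.213%, 0.216% and 0.0146% passed in these comparisons, so a count of 0 among 71 is what the background share gives and is not a result about the lists. A listed gene counts as passed if any of its transcripts passed. Its level, fold change and unadjusted p are those of its most abundant transcript, chosen by average level in -Fe vs +Fe. The values of its other transcripts are not given. Of all transcripts, 6.32%, 6.61% and 5.32% had an unadjusted p under 0.05 by edgeR in the 3 comparisons, in the same order. No count at that level is read as a result about the lists. Over the most abundant transcripts the medians of the lists in -Fe vs +Fe lay between -0.32 and 0.22 on the log2 scale, with the abscisic acid list apart at -1.04.

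The plastid transcription list, included because ppGpp acts on plastid transcription, held the first of these. SIG1 (AT1G64860.1), a sigma factor that directs the plastid-encoded RNA polymerase to photosynthesis promoters, averaged 62.8 CPM in -Fe and 154 CPM in +Fe. In the other table with -Fe it averaged 61.6 CPM there, and 160 CPM after resupply. SIG1 fell by 1.29 on the log2 scale in -Fe vs +Fe (SE 0.219, adjusted p = 0.0275 by edgeR) and by 1.37 in -Fe vs Fe resupply (SE 0.227, adjusted p = 0.0224 by edgeR). Resupply and +Fe differed by 0.09 on the log2 scale (adjusted p = 1 by edgeR). SIG1 was therefore low where RSH2 was high, in the same -Fe libraries. With the libraries as identical pairs the adjusted p of SIG1 was 1 in both comparisons. The other 11 genes of the list did not pass. The polymerase subunit gene rpoA, encoded in the plastid, averaged 185 CPM in -Fe and 284 CPM in +Fe, a log2 fold change of -0.62 (SE 0.0895, adjusted p = 0.00675 by edgeR) under the minimum fold. Against +Fe, rpoA stood at -0.52 after resupply (adjusted p = 0.214 by edgeR). The other subunit genes of that polymerase had log2 fold changes of 0.04 for rpoB, 0.19 for rpoC1 and 0.27 for rpoC2 in -Fe vs +Fe, each with an adjusted p of 1 by edgeR. The sigma factor gene SIG4 stood at 0.36 (unadjusted p = 0.00961, adjusted p = 0.723 by edgeR). RPOTmp, a phage-type polymerase, had 9.63 and 4.66 CPM and a log2 fold change of 1.03 (SE 0.705, adjusted p = 1 by edgeR).

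The 12 proteins that assemble with the plastid-encoded polymerase had 0 of 12 genes past the threshold in every comparison by edgeR. In -Fe vs +Fe 0 were under an unadjusted p of 0.05 by edgeR. PAP4, an iron superoxide dismutase, had a log2 fold change of 0.74 (SE 0.806) and PAP7 one of -0.27 (SE 0.640). Among 4 plastid GTPases of translation and ribosome assembly 0 passed. In -Fe vs +Fe 3 of them were under an unadjusted p of 0.05 by edgeR, against 6.32% of all transcripts. EF-Tu, which brings aminoacyl-tRNA to the ribosome, averaged 2142 CPM in -Fe and 1599 CPM in +Fe, a log2 fold change of 0.42 (SE 0.0890, adjusted p = 0.117 by edgeR). The translocation factor EF-G had 739 and 609 CPM and 0.28 on the log2 scale (SE 0.0715, adjusted p = 0.313 by edgeR).

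Enzymes that remove ppGpp or make the nucleotides around it did not pass either. Of 4 Nudix hydrolases able to cleave ppGpp 0 passed and 0 were under an unadjusted p of 0.05 in -Fe vs +Fe by edgeR. For NUDX15, AT1G28960.1, 1 of its 5 transcripts, had 2.20 CPM in -Fe and 7.02 CPM in +Fe (log2 fold change -1.63, SE 1.34). For NUDX25, AT1G30110.1, 1 of its 2 transcripts, had 4.69 and 6.06 CPM (log2 fold change -0.36, SE 0.912). Of 10 genes for guanine and adenine nucleotide synthesis 0 passed, with 1 at an unadjusted p under 0.05 when -Fe was set against +Fe. That gene was ASE2, for the enzyme of the committed step of purine synthesis, at 18.8 CPM in -Fe and 34.1 CPM in +Fe (log2 fold change -0.86, SE 0.275, adjusted p = 0.723 by edgeR). For the guanylate kinase gene GK-1, AT2G41880.3, 1 of its 9 transcripts, had 4.62 and 2.96 CPM, a log2 fold change of 0.62 (SE 1.43).

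Plant ppGpp has also been studied with the hormones jasmonate and abscisic acid. Of 22 jasmonate genes 0 passed in -Fe vs +Fe, and 0 had a most abundant transcript under an unadjusted p of 0.05 by edgeR. In -Fe vs Fe resupply 3 of 22 were under that value, as were 6.61% of all transcripts. In Fe resupply vs +Fe 4 of 22 were under it, against 5.32% of all transcripts. These 4 were LOX2 at -1.02, VSP1 at -0.70 and VSP2 at -1.07 as log2 fold changes, and JAZ10. The JAZ10 transcript AT5G13220.7, 1 of 7 of that gene, is listed at 0 after resupply. All 4 had an adjusted p of 0.813 by edgeR. JAR1 couples jasmonate to isoleucine. Its transcript AT2G46370.2, 1 of 4, had 10.8 CPM in -Fe and 40.4 CPM in +Fe, a log2 fold change of -1.89 (SE 1.19, adjusted p = 0.913 by edgeR). The repressor gene JAZ8 is listed at 0 in +Fe and had 0.612 CPM in -Fe. Of 7 abscisic acid genes 1 passed in -Fe vs +Fe. There 3 were under an unadjusted p of 0.05 by edgeR, against 6.32% of all transcripts. RAB18 (AT5G66400.1), a dehydrin gene used as a reporter of the hormone, averaged 42.3 CPM in -Fe and 90.3 CPM in +Fe and fell by 1.09 on the log2 scale (SE 0.156, adjusted p = 0.00647 by edgeR). Against resupply it averaged 41.4 CPM in -Fe and 89.2 CPM, a difference of -1.10 on the log2 scale (adjusted p = 0.0724 by edgeR). With identical pairs its adjusted p in -Fe vs +Fe was 1. For HAI1, a phosphatase of the pathway, AT5G59220.2, 1 of its 2 transcripts, had 0.615 and 4.97 CPM in -Fe and +Fe (log2 fold change -2.81, SE 1.49). NCED3, the rate-limiting enzyme of abscisic acid synthesis under stress, had 6.18 and 14.8 CPM (log2 fold change -1.24, SE 0.454). Both had an adjusted p of 0.723 by edgeR. RD29A, a stress gene that the hormone induces, had a log2 fold change of -1.04 (unadjusted p = 0.000370, adjusted p = 0.124 by edgeR).

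**Figure D4:**
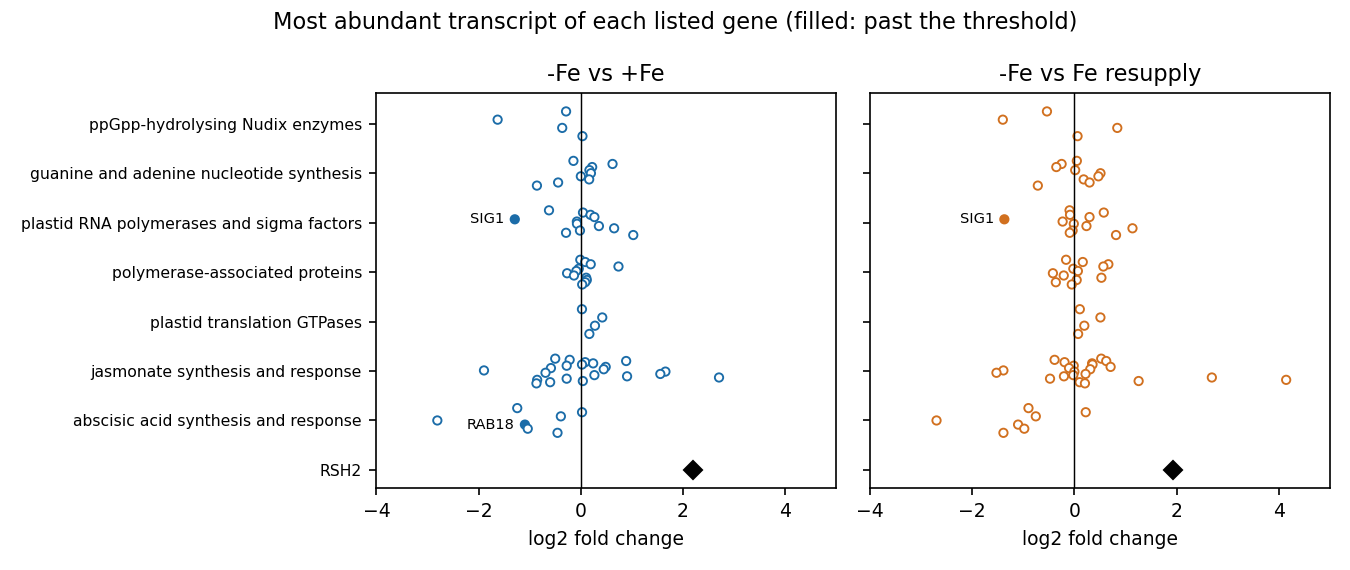
Log2 fold change (horizontal axis) of the most abundant transcript of each listed gene in -Fe vs +Fe and -Fe vs Fe resupply, by list (rows), with filled points past the threshold and a diamond for RSH2. SIG1 is filled at -1.29 and -1.37 and RAB18 at -1.09 in the former only, while RSH2 stands at 2.21 and 1.93.

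The transcripts with the pattern most like RSH2 were found by Euclidean distance over the 3 log2 fold changes, among 12432 transcripts with an average of at least 10 CPM in every table. Of the 10 nearest, 4 passed in both comparisons with -Fe, where 0.132% and 0.135% of all transcripts passed. The other 6 passed in neither although their fold changes were of like size. Choice by distance fixed the size of the fold changes in advance, so nothing is read from these counts. Those that passed were CGLD27 (distance 0.424), a gene conserved across plastid-bearing organisms, BTS (0.507), an E3 ligase of the iron response, the legume-lectin gene AT3G15356 (0.520) and ZIF1 (0.548), a vacuolar nicotianamine transporter. CGLD27 averaged 333 CPM in -Fe and 83.3 CPM in +Fe, BTS 858 and 202 CPM, AT3G15356 48.4 and 13.3 CPM, and ZIF1 236 and 69.4 CPM. The other 6 were AT4G16983.1 (0.297), AT4G19520.4 (0.374), ORG1 (0.415), the immune receptor gene SNC1 (0.445), AT1G01490.2 (0.532) and the plastid envelope antiporter transcript AT1G01790.2 of KEA1 (0.659). Likeness here is a description of 3 values per transcript that share libraries.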

How the data were processed

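Shoot RNA of 9 samples, 3 per condition and grouped by their GEO titles, was sequenced after preparation with an NEBNext Ultra II kit. Per the submitters' processing notes and the study's methods, the authors used Trimmomatic 0.36.5, HISAT2 2.1.0 on TAIR10, StringTie 1.3.3.2 and edgeR 3.20.7.2. The 3 deposited tables hold the authors' own statistics, 1 table per pair of conditions: the average log2 CPM, a log2 fold change, a score (the quasi-likelihood F statistic), and the deposited p-value, unadjusted and Benjamini-Hochberg adjusted. They are used because the family was defined on them. Each was fitted and normalised separately. The authors do not state which values edgeR was given, but transcripts with a single count give discrete levels, 12 per table, as whole counts would. Whether those totals are reads or scaled values is not stated, and 0 per-sample columns were used.

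Levels were recovered by removing the floor of the average (prior count 2) and applying the fold change (prior count 0.125). SE was the absolute log2 fold change over the square root of F, and the 95% interval used the degrees of freedom at which F gives the deposited p. Log2 ratios of summed levels have no prior. For each transcript of the family the 3 tables closed within -0.00873 to 0.0115 on the log2 scale. Python 3.11.15, numpy 2.4.6, pandas 2.3.3, scipy 1.17.1 and matplotlib 3.10.9 were used. The recovery was run on simulated data built with the same formulas and prior counts, so its return of the levels was fixed in advance. That run could not test the formulas on edgeR's own fits. Annotation and sequence are RefSeq's TAIR10.1, and no coordinates were converted.

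Named were all family transcripts, from each list every gene past the threshold and the 2 with the largest absolute log2 fold change in -Fe vs +Fe, and the 10 patterns nearest to RSH2. The rpo genes, SIG4, RD29A, LOX2, VSP1, VSP2 and JAZ10 were named after their values were seen. Members and lists were chosen with earlier results of these data known. Alternatives were another minimum fold, Bonferroni adjustment, adjustment over transcripts above the lowest level, libraries as identical pairs (F divided by 2, fewer degrees of freedom), and other forms of the RSH2 ratio.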

Additional observations from a re-analysis of the deposited data

How the results depend on the processing

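The log2 fold change of RSH2 in -Fe vs +Fe was 2.21 without a prior count or as a gene sum and 2.18 with 1 CPM added to both levels. Its call held there with no minimum fold, a minimum of 2, Bonferroni adjustment and adjustment above the lowest level (adjusted p from 5.19e-05 to 0.000800). With libraries as identical pairs (F divided by 2) the count of family transcripts past the threshold was 0 in each comparison with -Fe, and 3, 0 and 0 of all transcripts passed in the 3 tables. In -Fe vs Fe resupply the family count was also 0 at a minimum log2 fold change of 2, since RSH2 stood at 1.93.

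For the listed genes these alternatives were chosen after seeing the data. A minimum of 2, Bonferroni adjustment and identical pairs each left 0 genes in both comparisons with -Fe. Without a minimum fold 3 passed in -Fe vs +Fe, rpoA being added, and with adjustment above the lowest level 2 passed in -Fe vs Fe resupply, RAB18 being added (adjusted p = 0.0420). Fewer effective samples, a higher bar and a smaller set of tests are what these alternatives were built to apply. Over all transcripts Bonferroni adjustment left 32 and 21 in these tables, and dropping the minimum fold gave 107, 138 and 12.

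No paired analysis was possible because no values per sample were used, and leaving out replicates was not run for that reason. The intervals of the RSH1 and CRSH transcripts were wider than those of RSH2 and RSH3 in every table, and the cause was not tested.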
